A study of Canis lupus familiaris with 48 samples.

Results

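ENSCAFG00000012368 is a single annotated gene on dog chromosome 27, followed here through all 48 RNA sequencing libraries of the series together with its 16 annotated neighbours within 0.5 Mb. It was picked by identifier, as 1 of 32704 genes in the table, because earlier results of these data had shown it to be nearly without reads after NaCl and after raffinose. Its level in those groups is therefore given as a description and carries no test. The identifier is not paired with a gene name in the files or in the reference table used here, so no name or function is given for it.

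The cells were MDCK I cells, an established epithelial line from dog kidney that is widely grown as a model of the renal tubule. Per the labels, all cultures were kept for 144 h in DMEM/F-12 with fetal bovine serum, and the solutes were present for the last 24 h. The NaCl, raffinose and urea groups received medium with 200 mOsm of the named solute added, 500 mOsm in total, and the control group stayed in regular medium at 300 mOsm. Each group held 12 libraries of polyadenylated RNA, 1 at each of 12 labelled cell passages between 1 and 19. All libraries came from 1 cell line. The labels do not say whether libraries that carry one passage label shared a culture, so p-values measure only the spread between these libraries, which may be technical. Cell type markers were not checked, because 0 identifiers could be paired with symbols.

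Medium of raised osmolality acts on cells in different ways, depending on whether the solute enters them. Raffinose, a sugar, and the ions of NaCl stay largely outside the cell and draw water out of it, and cells answer by taking up or making compatible osmolytes and by changing the transcription of many genes. Urea crosses membranes, so it raises osmolality with little lasting change of cell volume. Cells of the inner kidney are known for living with high concentrations of both NaCl and urea.

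The median library held 10.51 megareads (M) in genes, the shallowest 3.92 M and the deepest 16.16 M. At those totals the limit that a count of 0 allows, 3 reads, lay between 0.186 and 0.766 counts per megaread (CPM) in a library; such limits and the count intervals below cover counting error only. Levels are given as CPM with library totals scaled by TMM factors, and as CPM per kb of exon where the gene's level is ranked among others.

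The gene model spans 48.47 kb on the plus strand of CanFam3.1, chr27:26348490-26396959. It has 15 exons of 65 to 222 bases, 2206 bases in all, which is 4.55% of the span, and 14 introns of 109 to 7855 bases. Only reads over exons were counted. Reads were counted without strand, so a transcript from the opposite strand over these exons would have been counted as well.

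After NaCl, ENSCAFG00000012368 was close to the detection limit. The 12 NaCl libraries held 0 to 5 reads of it each and 4 of them held none, with a lowest level of 0, a median of 0.0919 and a highest of 0.486 CPM. The group summed to 19 reads in 138.2 M, or 0.138 reads per M (95% exact Poisson interval 0.0828 to 0.215). After raffinose the counts were as low, with 0 to 5 reads in a library, none in 2 of 12 libraries, a median of 0.163 CPM and a highest of 0.431 CPM. The 21 reads in 125.0 M came to 0.168 per M (0.104 to 0.257). In bulk RNA such as this, fewer cells with the transcript and less transcript per cell cannot be told apart.

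Urea libraries and control libraries held the gene in every case. The urea libraries had 19 to 152 reads each, with a lowest level of 1.89, a median of 5.24 and a highest of 14.0 CPM. The control libraries had 38 to 412 reads each, with a lowest level of 3.59, a median of 9.10 and a highest of 28.7 CPM. Urea and control overlapped in part: 5 of 12 urea libraries lay below every control library, and 4 of 12 control libraries lay above every urea library. The highest NaCl or raffinose library, at 0.486 CPM, lay below the lowest urea library. All NaCl libraries lay below all control libraries, as they did for 11% of the 12654 genes tested; for raffinose this held for 12.9% of genes. Both groups lay below every urea and every control library for 5.37% of genes.

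**Figure D1:**
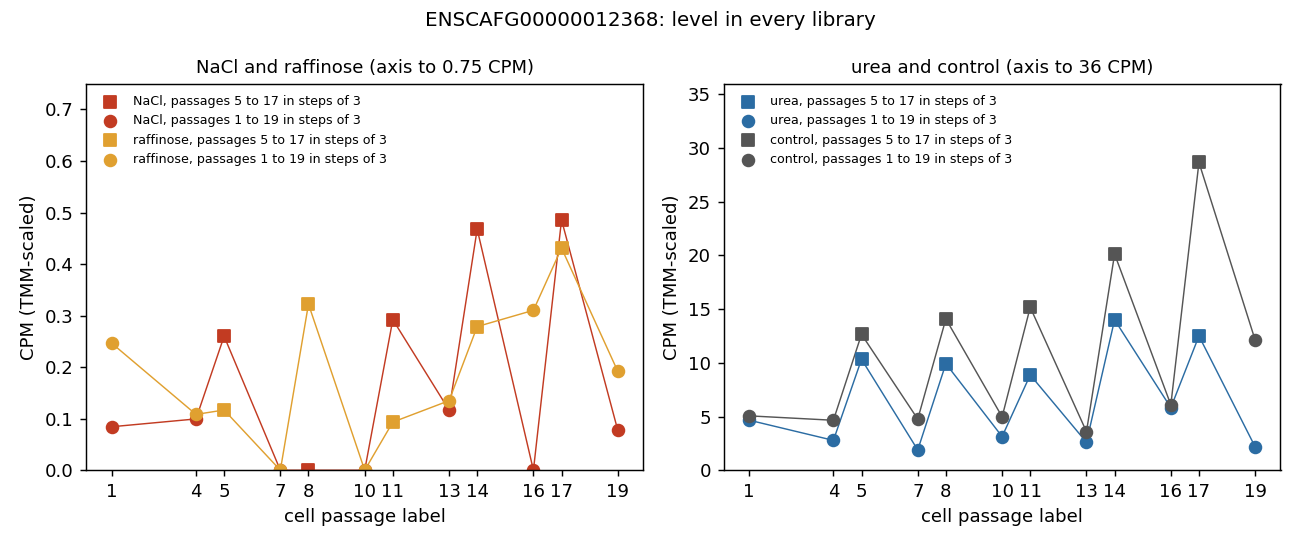
Level of ENSCAFG00000012368 in each of the 48 libraries, in TMM-scaled CPM, against the cell passage label; NaCl and raffinose are in the left panel and urea and control in the right, on axes of different height. Squares mark passages 5, 8, 11, 14 and 17, and circles the other 7; NaCl and raffinose stay at or under 0.486 CPM, and in urea and control the squares lie above the circles.

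The means were 0.157 ± 0.18 CPM after NaCl, 0.186 ± 0.13 after raffinose, 6.56 ± 4.4 after urea and 11.0 ± 7.7 in control (SD, n = 12 each). The NaCl mean was 1.43% of the control mean and the raffinose mean 1.69%, or 70.1-fold and 59.1-fold lower. The fitted log2 fold changes against control were -6.15 ± 0.48 after NaCl and -5.83 ± 0.48 after raffinose, the lowest but 1 of 12654 genes for NaCl and the rank 4 value from the bottom for raffinose. Against urea the log2 fold changes were -5.40 ± 0.50 for NaCl and -5.08 ± 0.50 for raffinose. NaCl lay below control at all 12 passages, and so did raffinose; these contrasts chose the gene and are read no further.

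Per kb of exon, the gene stood at 0.0712 CPM after NaCl, 0.0844 after raffinose, 2.97 after urea and 4.98 in control. On that scale its level ranked 12631 of 12654 tested genes after each of NaCl and raffinose. It ranked 10048 after urea and 9177 in control, below the median of tested genes in both. It was also the only gene of the whole table with a mean of at least 5 CPM in both urea and control and under 0.5 CPM after both NaCl and raffinose; that class was set with the gene's values known.

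The gene was chosen for being near 0 after both NaCl and raffinose, so their difference is also a description. The log2 fold change of NaCl over raffinose was -0.32 ± 0.87, on 19 reads after NaCl and 21 after raffinose, and its approximate 95% interval, -2.03 to 1.39, corresponds to a ratio of 0.244 to 2.61. The sign of this value changed with the passages used: it was -1.29 ± 0.85 over passages 1, 4, 7, 10, 13, 16 and 19, with 4 reads after NaCl and 10 after raffinose. It was 0.14 ± 0.68 over passages 5, 8, 11, 14 and 17, with 15 reads after NaCl and 11 after raffinose. The width over all passages depended on the fit. DESeq2 gave -0.32 ± 0.60. A fit with the passage label as a replicate block gave -0.34 ± 0.50, an approximate 95% interval for the ratio of 0.398 to 1.57.

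ENSCAFG00000012368 was also lower after urea than in control, by less than a factor of 2. The log2 fold change of urea over control was -0.75 ± 0.30 (edgeR, adjusted p = 0.0316), and the urea mean was 59.6% of the control mean. Of all tested genes, 52.3% were called between urea and control, 24.9% lower and 27.4% higher after urea. With the passage label as a replicate block the value was -0.75 ± 0.14 (adjusted p = 1.0e-05), in a fit that called 61% of genes, 29% lower. The control libraries of this contrast are those against which the gene was chosen. Without the block the call was lost in DESeq2 (-0.75, adjusted p = 0.0976), in a fit of urea and control alone (-0.77, adjusted p = 0.0708), and without passage 11 (adjusted p = 0.0502), 17 (0.0626) or 19 (0.079). With the block, the adjusted p stayed at or under 0.000131 whichever passage was left out.

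Set side by side within a passage, urea was below control at all 12 passages, which 14% of tested genes shared. The ratio of urea to control had a median of 0.663. It was closest to 1 at passage 16, with 5.82 CPM after urea and 6.09 CPM in control, and at passage 1, with 4.66 and 5.07 CPM for urea and control. The lowest ratio, 0.179, was at passage 19, with 2.17 CPM after urea and 12.1 CPM in control. The next lowest were 0.397 at passage 7 and 0.436 at passage 17. Passage 19 thus stood apart: without it the blocked log2 fold change was -0.60 (adjusted p = 5.64e-05).

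**Figure D2:**
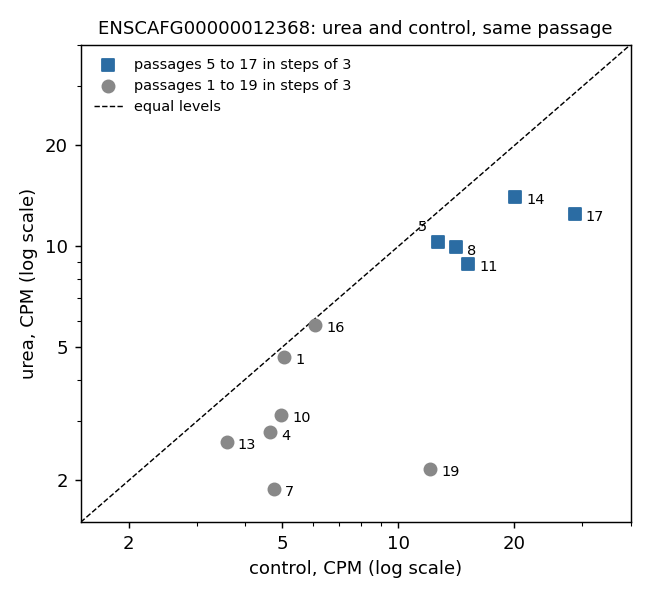
Level of ENSCAFG00000012368 after urea (vertical axis) against control (horizontal axis) at the same passage label, in CPM on log axes; the dashed line marks equal levels and the numbers are passage labels. All 12 points lie below the line, passage 19 farthest from it, and the 5 squares lie up and to the right of the circles, with passage 19 close to them on the control axis.

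The level varied widely between passages, with the same split of passages in urea and control. The passage labels form a pair of runs in steps of 3, one of 7 labels from 1 to 19 and one of 5 labels from 5 to 17, and the labels say nothing more about them. After urea, the 5 libraries of passages 5 to 17 ranged from 8.87 to 14.0 CPM, and the 7 of passages 1 to 19 from 1.89 to 5.82 CPM. In control the corresponding ranges were 12.7 to 28.7 CPM and 3.59 to 12.1 CPM. In neither group did the runs overlap, although the control library of passage 19, at 12.1 CPM, came close to the lowest of the other run. The runs were noticed in these values, so no test is given for them.

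Such a separation was uncommon among tested genes. The runs were noticed in the values of this gene, so the shares below are a description and no support for the split. All libraries of passages 5 to 17 lay above all of passages 1 to 19 for 0.727% of tested genes after urea and for 0.735% in control, and in both groups for 0.158%, which is 20 genes. The means of the runs were 11.1 ± 2.1 and 3.29 ± 1.4 CPM after urea, a 3.38-fold difference, and 18.1 ± 6.5 and 5.89 ± 2.8 CPM in control, a 3.08-fold difference (SD, n = 5 and 7). Library totals overlapped between the runs: 3.92 to 14.998 M and 8.73 to 13.9 M after urea, and 6.08 to 13.3 M and 6.91 to 16.1 M in control, for passages 5 to 17 and 1 to 19 in that order. What else differed between the runs was not tested.

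After NaCl the few remaining reads also lay mostly in passages 5 to 17, with 15 reads in 56.7 M, or 0.265 per M (0.148 to 0.437), against 4 reads in 81.5 M, or 0.0491 per M (0.0134 to 0.126), in passages 1 to 19. After raffinose the counts were 11 in 48.8 M and 10 in 76.2 M, with intervals that overlapped (0.113 to 0.403 and 0.0629 to 0.241 per M). The low level after NaCl and raffinose was found in each run. Relative to control, NaCl was 60.3-fold lower in passages 5 to 17 and 109.1-fold lower in passages 1 to 19; raffinose was 73.0-fold and 41.6-fold lower. Urea over control was -0.71 ± 0.22 in passages 5 to 17 and -0.83 ± 0.27 in passages 1 to 19. The runs were noticed in these values, so these are given without a test.

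The spread of the gene was high for its abundance. Its SD of log2 CPM was 0.953 over the urea libraries, the rank 12 value among 2255 genes within 2-fold of its mean, whose median SD was 0.284. In control it was 0.937, rank 7 among 3007 such genes with a median of 0.237. Within the runs the coefficient of variation was smaller: 18.7% in passages 5 to 17 and 43.4% in passages 1 to 19 after urea, against 66.4% over all 12. In control it was 35.9% and 48.2%, against 70.2%. The runs were noticed in these values, so a smaller spread within them is no separate result.

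A steady trend with passage number was not established. Per 10 passages the log2 slope over all 48 libraries was 0.64 ± 0.25 (edgeR, adjusted p = 0.0752), where 16.2% of tested genes passed, 8% upward and 8.2% downward. That fit counts the 4 libraries of a passage as separate samples. With the 4 libraries of a passage summed, the slope was 0.82 ± 0.40 (edgeR, adjusted p = 0.406). Within passages 5 to 17 the slope was 0.74 ± 0.18, within passages 1 to 19 it was 0.31 ± 0.19, and with the run as a term 0.45 ± 0.14. The runs were noticed in these values, and these fits count libraries of the same passage as separate samples. No test is therefore given for them. The slope did not differ detectably between solutes and control: the interaction was -0.55 ± 0.55 for urea (adjusted p = 1). For NaCl and raffinose, at 0 to 5 reads a library, it was -0.16 and -0.10, and these values are not read. The SE used here is unstable for them and is not given. With 1 passage left out it ran from 0.459 to 8.36 for NaCl and from 0.279 to 3.74 for raffinose.

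The levels part by run, so a correlation is given only within the 7 passages from 1 to 19. There, urea and control levels of the gene had a Pearson r of -0.0965 and a Spearman rho of 0.286 (exact permutation p = 0.952 and 0.556, two-sided; adjusted over 10 relations, 0.952 and 0.84). Without the 2 passages farthest from the median control level, r was 0.828, so the value rests on those passages. No correlation is given for the other run, which has fewer than 6 passages.

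Most annotated genes near ENSCAFG00000012368 had few or no reads, which was common in the whole table. Of its 32704 genes, 25518 had a read and 12654 had enough to be tested. Of the 16 annotated genes within 0.5 Mb, 11 lie before it and 5 after it; 3 had no read in any library, 10 had 1 to 13 reads over all 48 libraries, and 3 had enough to be tested. The next gene in the annotation, ENSCAFG00000012373, lies 14.0 kb beyond it on the minus strand and also has 15 exons; it had 10 reads in all. ENSCAFG00000012377, with 14 exons and 100.6 kb beyond, had 3 reads. On the other side the nearest, ENSCAFG00000029872, 48.1 kb before it, had 13 reads. The gene thus had reads in urea and control while the nearest genes on both sides of it were at or near 0.

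ENSCAFG00000012391, a gene of 31 exons on the minus strand (26569894 to 26878913), was higher after NaCl and raffinose, where ENSCAFG00000012368 was lower. Its span holds another annotated gene of the same strand, ENSCAFG00000034425, which had 1 read. ENSCAFG00000012391 had a lowest level of 0.934, a median of 2.20 and a highest of 3.28 CPM after NaCl. After raffinose these were 0.621, 1.58 and 2.78 CPM. After urea it had 1 read in 1 of 12 libraries, and in control 9 reads in 7 of 12, with a highest level of 0.311 CPM at passage 5. Every NaCl and raffinose library lay above every urea and control library, as for 7.71% of tested genes. It passed the filter on low counts only through its NaCl and raffinose libraries and is not tested in fits of either solute and control alone, so its fold changes are descriptions. The fitted log2 fold changes against control were 4.81 ± 0.33 after NaCl and 4.403 ± 0.35 after raffinose. From summed reads, the ratio to control was 29.7 for NaCl (95% exact interval 15.4 to 65.7) and 21.1 for raffinose (10.9 to 46.97). Even so its level per kb of exon was low, at 0.613 CPM after NaCl and 0.466 after raffinose, against 0.00203 after urea and 0.0198 in control.

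Between urea and control, ENSCAFG00000012391 had 1 read against 9, a ratio of summed reads of 0.115 with an interval of 0.00263 to 0.831. Of the 9 control reads, 3 were at passage 5. The gene is not tested in a fit of urea and control alone. The fit of all 48 libraries gave a log2 fold change of -1.97 ± 0.74, which was -1.52 without passage 5 and -0.88 in passages 1 to 19 alone.

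ENSCAFG00000012325 was the most abundant of the neighbours. This gene of 23 exons lies 90.7 kb before ENSCAFG00000012368, on the minus strand (26233558 to 26257743). It averaged 57.6 ± 6.4 CPM after NaCl, 64.9 ± 7.1 after raffinose, 64.8 ± 8.0 after urea and 76.4 ± 9.1 in control (SD, n = 12 each). All 12 NaCl libraries, the highest at 65.6 CPM, lay below all 12 control libraries, the lowest at 66.4 CPM, whereas raffinose and urea overlapped control. It fell by 0.41 ± 0.069 after NaCl (edgeR, adjusted p = 7.67e-07), by 0.23 ± 0.069 after raffinose (adjusted p = 0.00214) and by 0.24 ± 0.069 after urea (adjusted p = 0.00278) on the log2 scale.

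ENSCAFG00000012292, 298.6 kb before, on the plus strand (26047370 to 26049849) with 4 exons, was a low gene. It averaged 2.37 ± 0.70 CPM after NaCl, 2.23 ± 0.75 after raffinose, 3.57 ± 0.96 after urea and 3.68 ± 1.1 in control. It fell by 0.59 ± 0.17 after NaCl (edgeR, adjusted p = 0.00251) and by 0.69 ± 0.18 after raffinose (adjusted p = 0.000522) on the log2 scale, with libraries that overlapped control. After urea its log2 fold change was -0.01 ± 0.17 (adjusted p = 0.98). In passages 5 to 17 alone the NaCl value was -0.59 (adjusted p = 0.0563), and in passages 1 to 19 alone the raffinose value was -0.46 (adjusted p = 0.0679).

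Counted together, with ENSCAFG00000012391 in the count only through the groups where it was high, 2 of the 3 tested neighbours were lower and 1 higher after NaCl, and likewise after raffinose, where 36.1% and 34.6% of all tested genes were called lower and higher after NaCl and 38.2% and 36.7% after raffinose (70.7% and 74.9% in either direction). After urea 2 were lower and 0 higher in edgeR, where 52.3% of all genes were called and 24.9% lower, and DESeq2 called 1. The lower neighbours after urea include ENSCAFG00000012391, which had 1 read after urea and 9 in control. A fit of urea and control alone does not test that gene and calls 1 neighbour. The median log2 fold change of the 3 neighbours after urea, that gene included, was -0.24, and that of all tested genes 0.02. For NaCl it was -0.41 against -0.02, and for raffinose -0.23 against -0.02. Between NaCl and raffinose edgeR called 0 of 3, with 1 at an unadjusted p under 0.05, and DESeq2 called 0, where edgeR called 15.4% of all genes, 7.42% higher and 7.97% lower after NaCl. With the replicate block ENSCAFG00000012325 passed (-0.17, edgeR, adjusted p = 0.0235), in a fit that called 28.4% of genes, 14.4% lower. Against urea, edgeR called all 3 after NaCl, 1 higher and 2 lower, where 72.6% of genes were called, 35.7% higher and 36.9% lower. After raffinose it called 2, 1 higher and 1 lower, where 76% were called, 37.6% higher and 38.4% lower. With 3 genes, these counts describe the window and no more. The comparisons of the solutes with control share the control libraries.

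**Figure D3:**
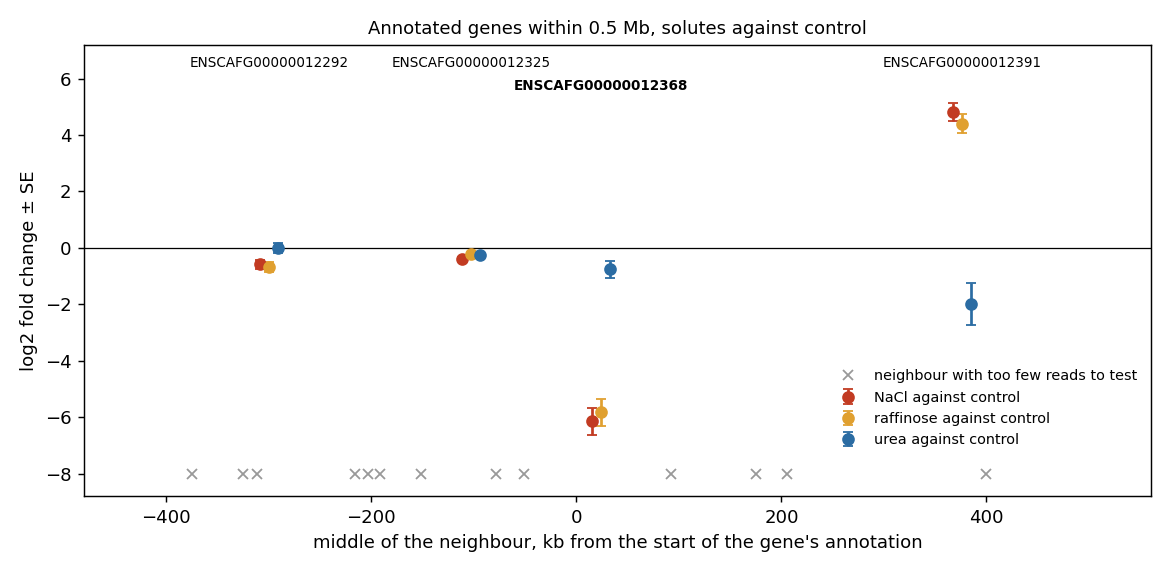
Log2 fold changes (± SE) after NaCl, raffinose and urea against control for ENSCAFG00000012368 and its 3 tested neighbours, placed by the middle of each gene in kb from the start of ENSCAFG00000012368; crosses at the bottom mark the 13 neighbours with at most 13 reads. ENSCAFG00000012368 lies near -6 after NaCl and raffinose, ENSCAFG00000012391 above 4, and the neighbours before it within 1 of 0.

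Across the 48 libraries, the genes whose log2 CPM ran most like that of ENSCAFG00000012368 had a smaller loss. ENSCAFG00000018554 on chromosome 7 had the highest Pearson r, 0.959, followed by ENSCAFG00000011403 (0.945), ENSCAFG00000012593 (0.939) and ENSCAFG00000030486 (0.936), also on chromosome 7, and ENSCAFG00000001204 on chromosome 11 (0.932). Over all 12653 other tested genes the median r was 0.03, and 75 genes exceeded 0.9. ENSCAFG00000018554 averaged 18.4 ± 1.9 CPM after NaCl, 17.6 ± 2.2 after raffinose, 37.6 ± 4.6 after urea and 41.04 ± 4.5 in control. Its log2 fold changes, -1.16 after NaCl and -1.22 after raffinose, were a fraction of those of ENSCAFG00000012368; the other 4 had between -1.71 and -2.05 after NaCl. These 48 points share the groups, so a gene with the same order of group means has a high r.

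Likeness was also measured on what the groups do not give, the deviations from group means over the 24 urea and control libraries. ENSCAFG00000005335, on chromosome 17 (24775964 to 24798959, minus strand, 42 exons), was first at r = 0.850. The next were ENSCAFG00000031582 (0.846), ENSCAFG00000007593 (0.834), ENSCAFG00000018883 (0.830) and ENSCAFG00000018641 (0.825). The median over all genes was 0.00 and 0 genes exceeded 0.9; 0 of these 5 genes were among the 5 above. In each of the 5 genes the mean of passages 5 to 17 was above that of passages 1 to 19. The difference was 1.13-fold to 2.72-fold after urea and 1.22-fold to 3.99-fold in control. The deviations of ENSCAFG00000012368 part by run, so this order follows from how the 5 genes were picked.

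ENSCAFG00000005335 had 1 read after NaCl and 3 after raffinose in all, with 332 after urea and 223 in control; its r over the 48 libraries was 0.927. After urea its levels were 3.71 to 5.30 CPM in passages 5 to 17 and 1.08 to 1.956 CPM in passages 1 to 19. In control they were 2.30 to 3.83 CPM and 0.448 to 1.02 CPM, so its runs did not overlap in either group. Its log2 fold changes against control were -6.45 ± 0.61 after NaCl and -5.48 ± 0.57 after raffinose. Between urea and control the order was the other way round: its mean was 2.61 ± 1.4 CPM after urea and 1.72 ± 1.2 CPM in control (log2 fold change 0.63 ± 0.28). The gene passed the filter on low counts only with its urea libraries and was picked over these same libraries. The value is therefore a description, and edgeR did not call it.

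**Figure D4:**
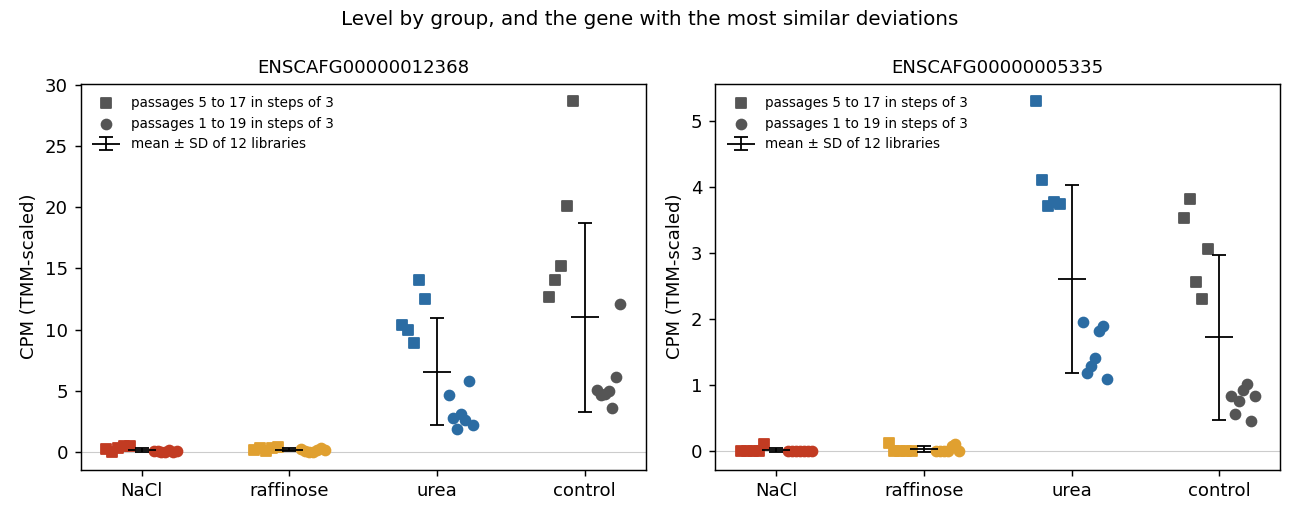
CPM of ENSCAFG00000012368 (left) and ENSCAFG00000005335 (right) in each library by group; squares mark passages 5 to 17, circles passages 1 to 19, and black bars the mean ± SD of 12 libraries. In both genes the NaCl and raffinose libraries lie near 0 and, in urea and control, the squares lie above the circles.

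The other 4 genes shared the deviations with ENSCAFG00000012368 and not the size of its loss. ENSCAFG00000018641 on chromosome 9 averaged 173.0 ± 42 CPM after NaCl, 191.0 ± 40 after raffinose, 74.6 ± 15 after urea and 39.02 ± 6.8 in control. ENSCAFG00000007593 on chromosome 3 also had more after NaCl than in control, at 804.8 ± 161 and 435.7 ± 54 CPM. ENSCAFG00000018883 on chromosome 9 had 0.949 ± 0.56 CPM after NaCl and 3.64 ± 1.3 CPM in control. ENSCAFG00000031582 on chromosome 18 had 279.6 ± 32 CPM after NaCl and 304.8 ± 37 CPM in control, a log2 fold change of -0.12. These genes were picked for likeness over the same libraries, and the values are descriptions.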

How the data were processed

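Gene counts of 48 libraries of MDCK I RNA were used. The authors deposited raw read counts per gene; per the file headers these came from featureCounts 1.5.1, which counted reads over exons regardless of strand, using Ensembl release 87 gene models for CanFam3.1, and per the submitters' processing notes CASAVA and HISAT2 2.0.5 were also used. The gene length in the table is the authors' other value, a summed exon length per the file headers. The columns of passage 10 carry an added number the sources used here do not explain. No column of values was left unused (0), and 0 rows were blank or summary rows.

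Counts were fitted with edgeR 4.0.16 in R 4.3.3 (filterByExpr, 12654 genes; TMM; glmQLFit over all 48 libraries; glmQLFTest), with Benjamini-Hochberg adjustment over all tested genes and a threshold of 0.05; SE is the log2 fold change over the square root of F. The edgeR fits of NaCl against control and of the passage trend were tried on simulated counts. Those counts came from independent libraries with the same dispersion for every gene. They held no shared spread between libraries of a passage, so that case and the blocked fits were not checked. Correlations used log2(CPM + 0.5). Library totals limit precision as given in the report. The lowest chi-square per gene between libraries of a group was 4.99, so none was taken as a repeat of another. Each library was counted as 1 replicate, although libraries of the same passage label may have shared a culture.

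The passage labels pair the libraries across groups: after group means were removed, the correlation averaged 0.33 over 72 same-passage pairs (-0.12 to 0.73) and -0.03 over 792 other pairs. Genes named are ENSCAFG00000012368, its neighbours, and 5 genes for each of the likeness measures. The gene, the lists and the tests were chosen with earlier results of these data known. Alternatives were RLE factors, library totals, DESeq2 1.42.0, no filter, a filter at a mean of 5 CPM, the block, a passage term, fits of 2 groups, other windows and each passage left out. The splits by run, the fit with run as a term, the fit without the shallowest library and the blocked fits without a passage were added after the values were seen.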

Additional observations from a re-analysis of the deposited data

Results flagged for a closer look

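The direct contrast of NaCl or raffinose with urea was called for a neighbour in 5 cases of 6 (log2, edgeR, all 48 libraries). These include the cases of ENSCAFG00000012391, which are descriptions and not tests for the reason given below. Of all tested genes, 72.6% were called between NaCl and urea and 76% between raffinose and urea. Between NaCl and raffinose 0 of 3 neighbours were called, where 15.4% of all tested genes were. For ENSCAFG00000012391 the effect of NaCl minus that of urea was 6.78 ± 0.43, and that of raffinose minus urea 6.38 ± 0.45; the urea side of both is 1 read, and the gene passed the filter only through NaCl and raffinose. For ENSCAFG00000012292 the differences were -0.58 ± 0.17 for NaCl minus urea (adjusted p = 0.00272) and -0.69 ± 0.18 for raffinose minus urea (adjusted p = 0.000583). For ENSCAFG00000012325 NaCl minus urea was -0.17 ± 0.069 (adjusted p = 0.027). This call was lost without passage 4 (adjusted p = 0.0612), 7 (0.0661) or 8 (0.101), without the shallowest library, urea at passage 8 (0.0687), and in either run alone (both 0.113). For ENSCAFG00000012292 it was lost for NaCl in passages 5 to 17 alone (0.0604) and for raffinose in passages 1 to 19 alone (0.0636).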

How the results depend on the processing

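Of 370 values recomputed under an alternative, 335 kept their direction and their side of the threshold or, for values without a test and for counts, stayed close to the value reported. The cause of the others was not tested unless given here. Urea against control for ENSCAFG00000012368 lost its call in DESeq2 (-0.75) and in the fit of 2 groups (-0.77), and ran from -0.81 to -0.64 with 1 passage left out and from -0.81 to -0.60 with the replicate block as well; the block itself gave -0.75 and changed no call of the gene. NaCl against raffinose turned to 0.14 in passages 5 to 17. The passage slope crossed the threshold in passages 5 to 17 (0.74) and with the run as a term (0.45). As the runs were noticed in these values, neither is read as a test. With 1 passage left out the slope ran from 0.30 to 0.89 and passed without passage 5, 13, 16 or 19. These fits count libraries of the same passage as separate samples, so those passes are not read as a test either. With the libraries of a passage summed, the slope did not pass (edgeR, adjusted p = 0.406). The passage interactions ran from -0.40 to 0.18 for NaCl and from -0.35 to 0.50 for raffinose with 1 passage left out.

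The number of neighbours called changed where fewer or more could be tested, and also in fits that tested the same 3. For urea against control, changes of the latter kind were the more common. With a mean of at least 5 CPM, 1 gene was left, and the count was 1 for each solute against control, 1 between NaCl and urea, and 0 between raffinose and urea, where its unadjusted p was 0.628; ENSCAFG00000012368 itself has no value there. For urea against control the count was 1 in DESeq2, in the fit of 2 groups, and in either run alone, 5 in the 1 Mb window, and 1 to 2 with 1 passage left out. For NaCl against urea it was 1 in passages 5 to 17, 6 in the 1 Mb window and 2 to 3 with 1 passage left out. For raffinose against urea it was 1 in the fit of 2 groups, in passages 1 to 19 and in the 0.25 Mb window, and 5 in the 1 Mb window. The replicate block raised NaCl against raffinose to 1. The fit of NaCl and raffinose alone gave no value for the gene, which did not pass the filter.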
